A study of Mus musculus with 6 samples.

Results

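The genes described here are 10 regulators of the G1 phase of the cell cycle, taken by symbol from both genotypes' tables of inguinal white adipose tissue (iWAT), a subcutaneous fat depot of the mouse. They are the D-type cyclins *Ccnd1*, *Ccnd2* and *Ccnd3*, the kinases *Cdk2*, *Cdk4* and *Cdk6*, the kinase inhibitors *Cdkn1a* and *Cdkn1b*, the retinoblastoma gene *Rb1* and the ubiquitin ligase gene *Cul3*. All 10 were among the 55573 genes listed and among the 16868 with enough reads to be tested.

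Whole iWAT was profiled by RNA-seq in 3 Wt and 3 mutant mice, with 1 library per mouse. All were untreated males of the C57BL/6NTac strain, 3 months old and fed regular chow. The mutant mice were homozygous for a global knock-in of K283Q and K288R in *Thra*, the gene of thyroid hormone receptor alpha, which removes lysines used for conjugation of the small protein SUMO. Since the mutation was global, every cell type of the depot and every other tissue carried it, and the libraries hold RNA of all cell types of the tissue.

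Progression through G1 depends on D-type cyclins, which bind and activate *Cdk4* and *Cdk6*, and later on *Cdk2* with E-type cyclins. These kinases phosphorylate the retinoblastoma protein, which otherwise holds E2F transcription factors back from the genes of DNA synthesis. The proteins p21 and p27, encoded by *Cdkn1a* and *Cdkn1b*, bind the cyclin-kinase complexes, and cullin 3 is the scaffold of a ubiquitin ligase that targets cyclin E. In adipose tissue most mature adipocytes do not divide, and the preadipocytes of the stroma supply new ones. The study asked whether THRA sumoylation alters preadipocyte proliferation and G1 progression. In isolated mutant preadipocytes it reported lower *Ccnd1*, *Ccnd2*, *Cdk2* and *Cul3* mRNA. For the first 3 of these it stated that mature fat showed no change. The comparison of genotypes below covers mRNA of whole tissue only, not of preadipocytes in G1.

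Between genotypes, 1 inhibitor stood apart. *Cdkn1a* was 2.78-fold higher in mutant than in Wt animals, or 1.45 on the log2 scale (standard error 0.11, n = 3 per genotype, adjusted p = 0.00166, limma). *Ccnd3* was 25.5% lower (log2 fold change -0.42, standard error 0.09, adjusted p = 0.0426, limma), a call that was lost when any 1 mouse was left out. The other 8 genes did not pass the threshold on the false discovery rate (FDR) of 0.05, so 2 of 10 were called. Among all genes tested, limma called 8.11% in either direction, 5.50% higher and 2.61% lower in mutant mice. The split of all calls depended on the scaling, with 928 higher and 440 lower in the deposited scaling, 1019 and 265 with library size only, and 876 and 140 with a correction for GC content.

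Values, given in the order of mice 1, 2 and 3, are normalized CPM (reads per gene scaled to library size) as deposited, and the reads behind them lay between 169 and 5464 for each of these genes in each mouse. Reads on genes ranged from 19607423 to 24228381 per mouse, so that 3 reads correspond to 0.126 to 0.157 normalized CPM, a floor that covers counting error only. Fold changes are differences of mean log2(value + 0.5), mutant minus Wt, with 95% intervals of single genes, and the adjusted p-values cover all 16868 genes. With 3 mice in each genotype, the smallest two-sided p of an exact permutation test is 0.1. The mutated gene was detected throughout, with Wt libraries at 117 to 147 and mutant libraries at 137 to 170 normalized CPM, and the groups overlapped (log2 fold change 0.19, adjusted p = 0.404, limma). This value was 0.45 with a correction for GC content (adjusted p = 0.0822, limma) and 0.09 without mutant mouse 1. A transcript count of *Thra* cannot show the exchanged codons.

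The libraries differed in the values of marker genes of other cell types and tissues. The summed value of 5 B cell markers was 340, 690 and 740 for Wt mice and 3.25, 426 and 664 for mutant mice, and that of 6 T cell markers was 125, 348 and 498 against 5.66, 205 and 260. Mutant mouse 1 was thus close to free of lymphocyte transcripts, and mouse 1 was the lowest of its genotype in both groups. Summed skeletal muscle markers lay between 10390 and 25785 in all 6 libraries, as high as the summed adipocyte markers (11377 to 19226), with *Myh1* as the 1 of 6 called higher in mutant mice. Of 6 mesothelial markers, 5 were called higher, the sum of those 5 being 1.99 to 4.59 in Wt and 29.8 to 61.6 in mutant mice. The sixth, *Krt19*, was at 28.5 in Wt mouse 1 and at 2.72 to 8.86 elsewhere, and *Upk3b*, *Upk1b* and *Wt1* were each at 0 in 1 Wt mouse. The 5 epithelial markers summed to 68.7 in Wt mouse 1 and to between 3.79 and 9.89 elsewhere. No gene of the adipocyte, stroma, macrophage, endothelial or Schwann lists was called. Even so, 4 of 8 preadipocyte and stroma markers and 2 of 4 endothelial markers were higher in mutant mice without overlap (14.9% of all genes tested). In both lists 0 were separated in the lower direction (15.7% of all genes tested). The macrophage list had 1 in each direction, the Schwann list 1 higher and the adipocyte list 0. In a whole tissue, fewer cells of a type and less RNA per cell cannot be told apart.

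The promoter stretches below are shown because the study examined binding of CREB, the cyclic AMP responsive factor, at genes of this group. The genes it examined were *Ccnd1*, *Ccnd2*, *Cdk2* and *Cul3*. The letters marked below were not matched to the sites that the study tested. Each is the 120 bases before a RefSeq start site on GRCm38.p6, written 5′ to 3′ on the gene's strand. The stretches of the first *Ccnd3* start site and of *Cdkn1b* are not printed. Their TGACG matches lay outside the 120 bases, at positions -165 and 22 from the start site. Capitals mark TGACG, the core of the cyclic AMP response element, on either strand, and in *Cdkn1a* the repeat unit of the p53 response element.
Cdkn1a, first start site, chr17:29090859-29090978, + strand: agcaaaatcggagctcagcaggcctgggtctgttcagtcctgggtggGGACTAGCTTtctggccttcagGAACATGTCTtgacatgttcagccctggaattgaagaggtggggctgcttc
Cdkn1a, second start site, chr17:29093649-29093768, + strand: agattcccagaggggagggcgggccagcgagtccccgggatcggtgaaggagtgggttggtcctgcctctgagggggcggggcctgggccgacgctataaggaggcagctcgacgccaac
Ccnd3, second start site, chr17:47593347-47593466, + strand: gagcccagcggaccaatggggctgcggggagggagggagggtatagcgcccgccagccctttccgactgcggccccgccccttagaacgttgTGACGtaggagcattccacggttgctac
Cdk2, chr10:128705052-128705171, - strand: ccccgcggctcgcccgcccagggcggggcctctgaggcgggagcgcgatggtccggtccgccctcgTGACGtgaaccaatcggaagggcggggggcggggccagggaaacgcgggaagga
Cdk4, chr10:127063415-127063534, + strand: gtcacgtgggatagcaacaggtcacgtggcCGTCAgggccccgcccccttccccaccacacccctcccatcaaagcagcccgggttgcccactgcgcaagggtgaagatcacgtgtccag
Cdk6, chr5:3343773-3343892, + strand: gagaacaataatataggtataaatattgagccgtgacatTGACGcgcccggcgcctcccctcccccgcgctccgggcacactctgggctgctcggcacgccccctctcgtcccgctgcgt
Cul3, chr1:80340691-80340810, - strand: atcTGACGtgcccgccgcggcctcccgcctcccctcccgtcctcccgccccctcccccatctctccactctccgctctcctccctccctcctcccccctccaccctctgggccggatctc

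Windows from 250 bases before to 50 bases after a RefSeq start site were held for 7 of the 10 genes, in 9 windows, with 2 each for *Ccnd3* and *Cdkn1a*. No window was held for *Ccnd1*, *Ccnd2* or *Rb1*, so their promoters were not looked at. The core TGACG was found on either strand in 7 of the 9 windows and at 6 of the 7 genes, against 20.8% of all 32851 windows. Both windows of *Cdkn1a* lacked it, and in *Cdkn1b* the match lay past the start site, at position 22. The full palindrome TGACGTCA, which holds the core, was in 0 of 9 windows (1.79% of all windows), and the AP-1 site TGANTCA was also in 0 of 9 (7.81% of all). GGGCGG, the box bound by SP1, was in 7 of 9 (35.7% of all). The hexamer AGGTCA of thyroid hormone receptor sites was in the first *Ccnd3* window and in *Cdk4* (16.3% of all windows), and CACGTG, the E-box, was in *Cdk4* and *Cdk6* (7.15% of all). The p53 repeat unit was found only in the first *Cdkn1a* window among the 9, at positions -73 and -51, and in 8.36% of all windows. These matches describe letters in short windows and not binding.

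*Ccnd1*, *Ccnd2* and *Ccnd3* encode the D-type cyclins, which couple growth signals to the G1 kinases. For *Ccnd3* (ENSMUSG00000034165, chr17:47505051-47599691 in GENCODE M21 on GRCm38, + strand), the values were 88.6, 94.5 and 108 normalized CPM in Wt 1, 2 and 3 and 72.5, 72.4 and 71.9 in mutant 1, 2 and 3. The mutant mice lay almost on 1 value, at 72.3 ± 0.317 (SD, n = 3), and all were below the lowest Wt mouse, with a Wt mean of 97.0 ± 9.88 (SD, n = 3). The mutant values came from 1384 to 1613 reads, and their SD was not compared with counting error. The 95% interval of the log2 fold change of -0.42 was -0.64 to -0.20. Mutant mouse 1, with almost no lymphocyte transcripts, was at the level of the other mutant mice, and without it the log2 fold change was again -0.42. Among the Wt mice, *Ccnd3* had the same order as the B and T cell sums, lowest in mouse 1 and highest in mouse 3, and the part of lymphocyte transcripts in the *Ccnd3* difference was not tested. The adjusted p (limma) rose past 0.05 in each fit with 1 mouse less, to 0.0502, 0.133 and 0.113 without Wt mouse 1, 2 or 3 and to 0.0865, 0.144 and 0.110 without mutant mouse 1, 2 or 3. With a correction for GC content the log2 fold change shrank to -0.26 (adjusted p = 0.171, limma).

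*Ccnd1* (ENSMUSG00000070348, chr7:144929931-144939925, - strand) was at 54.3, 55.1 and 63.6 normalized CPM for Wt mice and 33.0, 44.2 and 48.7 for mutant mice. Each mutant mouse was below each Wt mouse, with mutant mouse 1 the lowest. The interval of its log2 fold change ran from -0.85 to -0.09 and the adjusted p was 0.131 (limma). Without mutant mouse 1 the log2 fold change of *Ccnd1* was -0.31 in place of -0.47 (adjusted p = 0.188, limma). *Ccnd2* (ENSMUSG00000000184, chr6:127125162-127152193, - strand) was at 221, 232 and 230 for Wt mice and 218, 211 and 205 for mutant mice. The groups did not overlap here either, but they were only 3.09 normalized CPM apart. For RNA of the whole tissue, the log2 fold change of *Ccnd2* was -0.11 with an interval of -0.29 to 0.07 (adjusted p = 0.407, limma). It was -0.16 with a correction for GC content (adjusted p = 0.26, limma).

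**Figure D1:**
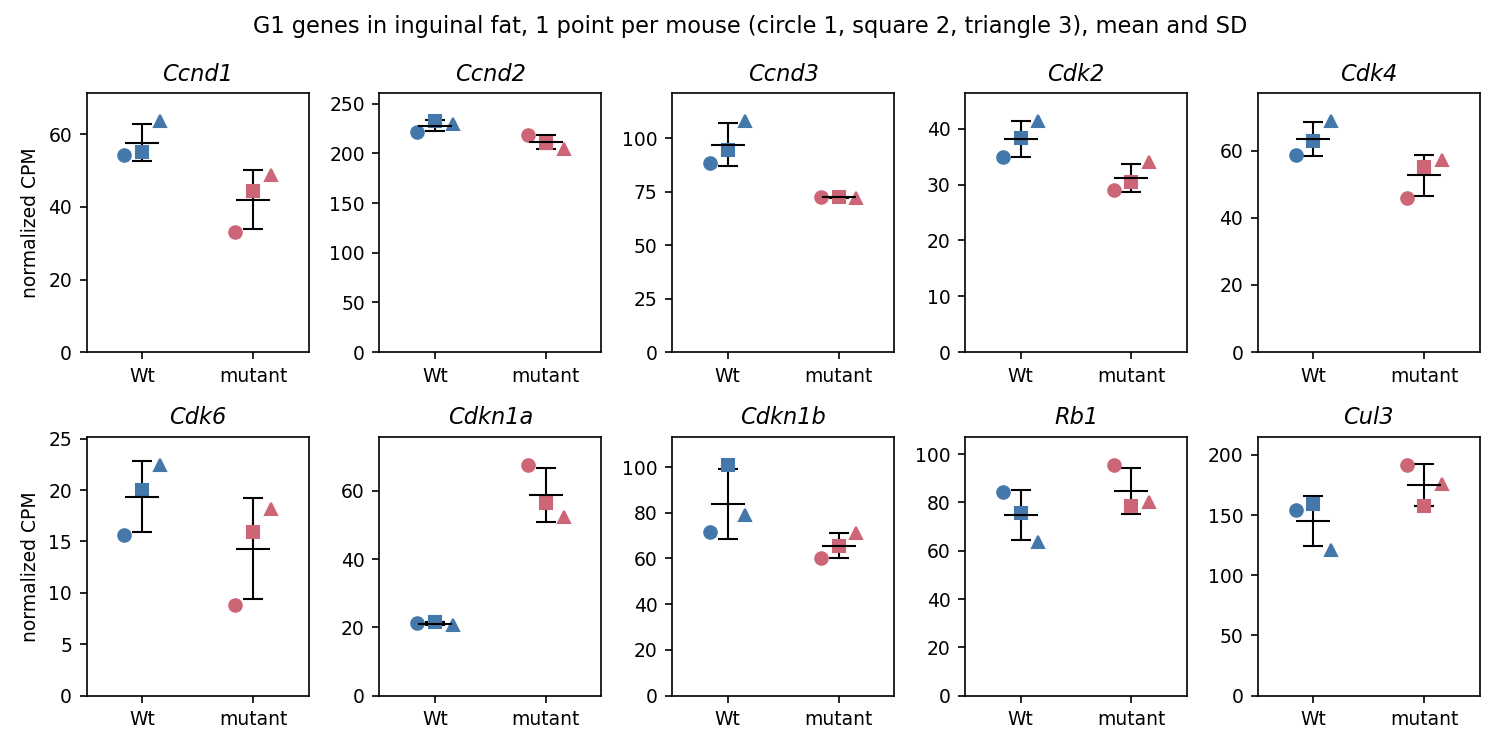
Normalized CPM (vertical axes, each from 0) of the 10 G1 genes in Wt (blue) and mutant (red) mice, 1 point per mouse, with the mean and SD of 3 mice as a dash and bars. The *Cdkn1a* panel shows mutant mice at 52.4 to 67.7 and Wt mice at 20.7 to 21.6, the *Ccnd3* panel shows mutant mice at 71.9 to 72.5 below all Wt mice, and the *Cdk6*, *Rb1* and *Cul3* panels show overlapping groups.

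The kinases that these cyclins and the E-type cyclins activate were at lower values in mutant mice, with none past the FDR. *Cdk4* (ENSMUSG00000006728, chr10:127063534-127067920, + strand), a main D-cyclin partner, was at 58.8, 62.9 and 68.7 normalized CPM for Wt mice and 45.8, 55.0 and 57.1 for mutant mice. *Cdk2* (ENSMUSG00000025358, chr10:128697939-128705031, - strand), the partner of cyclins E and A, was at 35.0, 38.3 and 41.4 against 29.03, 30.5 and 34.0. In both genes all mutant mice lay below all Wt mice, by 1.69 normalized CPM for *Cdk4* and 1.01 for *Cdk2*. The adjusted p was 0.203 for *Cdk4* and 0.145 for *Cdk2* (limma).

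*Cdk6* (ENSMUSG00000040274, chr5:3341485-3531008, + strand), the other D-cyclin kinase, was at 15.6, 20.035 and 22.5 normalized CPM for Wt mice and 8.86, 15.9 and 18.2 for mutant mice. The groups overlapped (exact two-sided permutation p = 0.3), and mouse 1 was the lowest in both genotypes, as it was for the B and T cell markers. The log2 fold change of -0.47 had an interval of -1.14 to 0.21, and without mutant mouse 1 it was -0.17 (adjusted p = 0.685, limma). *Ccnd1*, *Cdk2*, *Cdk4* and *Cdk6* were all lowest in mouse 1 and highest in mouse 3 of each genotype. The B and T cell sums had the same order. The part of lymphocyte transcripts in these genes was not tested.

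Within the cyclin and kinase group, the number of genes whose mutant mice all lay below the Wt mice was 5 of 6, *Cdk6* being the exception. Over all 10 genes it was 6 lower and 1 higher, while 15.7% of all genes tested were separated in the lower and 14.9% in the higher direction. The median log2 fold change of the 10 genes was -0.28, that of all genes tested was -0.05, and without mutant mouse 1 the median of the 10 was -0.17. Without that mouse the log2 fold changes of other genes were -0.13 for *Ccnd2*, -0.24 for *Cdk2*, -0.18 for *Cdk4*, -0.28 for *Cdkn1b*, 0.10 for *Rb1* and 0.21 for *Cul3*, all of the same sign as with it. Without adjustment, 5 of the 10 had a p under 0.05 (limma), as did 24.2% of all genes tested.

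*Cdkn1a* (ENSMUSG00000023067, chr17:29090976-29100727, + strand) encodes p21, an inhibitor of G1 kinases and a classical p53 target. Its values were 21.2, 21.6 and 20.7 normalized CPM in Wt 1, 2 and 3 and 67.7, 56.4 and 52.4 in mutant 1, 2 and 3, from 444 to 505 reads per Wt mouse and 1119 to 1291 per mutant mouse. The lowest mutant mouse was thus 30.8 normalized CPM above the highest Wt mouse, a gap far larger than the SD of 0.468 in Wt and 7.92 in mutant mice. These SDs were not compared with counting error. The interval of the log2 fold change was 1.18 to 1.71. It stayed between 1.34 and 1.53 in all 19 alternative fits, with an adjusted p of at most 0.0144, and the lowest value was the one without mutant mouse 1. Of the 6 mesothelial markers, all but *Krt19* (log2 fold change -0.17) moved in the same direction as *Cdkn1a*. The muscle gene *Myh1* did so too, at 31.1, 279 and 166 for Wt mice and 2405, 1986 and 2385 for mutant mice (log2 fold change 4.31, adjusted p = 0.0208, limma), as did *Mylpf*, another muscle gene, whose mutant mice were all above the Wt mice (0.98, adjusted p = 0.118, limma). The other 4 muscle markers overlapped between genotypes. The part of either tissue in the *Cdkn1a* difference was not tested.

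*Cdkn1b* (ENSMUSG00000003031, chr6:134920401-134925513, + strand) encodes p27, the other inhibitor. It was at 71.7, 101 and 79.0 normalized CPM for Wt mice and 60.1, 65.4 and 71.3 for mutant mice. The mutant mice were all lower, but the nearest pair was 0.413 normalized CPM apart, and Wt mouse 2 stood above the rest. The log2 fold change of -0.34 had a standard error of 0.14 (adjusted p = 0.209, limma) and was -0.20 without Wt mouse 2 (adjusted p = 0.422, limma). The ratio of *Cdkn1a* to *Cdkn1b* in normalized CPM was 0.295, 0.214 and 0.262 for Wt mice and 1.13, 0.862 and 0.734 for mutant mice. The 3 mutant values of this ratio all lay above the 3 Wt values.

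**Figure D2:**
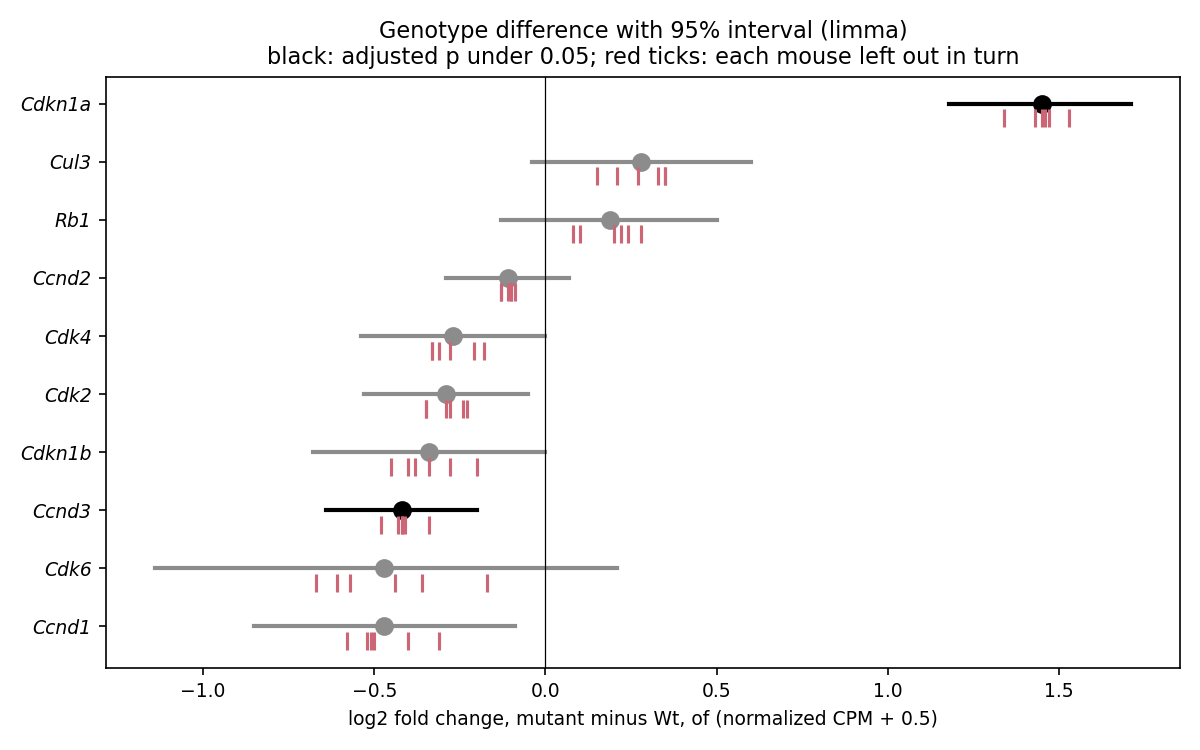
Log2 fold change of each gene (horizontal axis, mutant minus Wt, of normalized CPM + 0.5), with the 95% interval as a line and the values with each mouse left out as red ticks. *Cdkn1a*, at 1.45, lies far to the right of the other 9, *Ccnd3* is the other gene in black for an adjusted p under 0.05, and for every gene the ticks stay on the side of 0 of the full fit.

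*Rb1* (ENSMUSG00000022105, chr14:73183673-73325822, - strand), whose protein holds back E2F factors, was at 84.4, 75.8 and 63.7 normalized CPM for Wt mice and 95.6, 78.5 and 80.0 for mutant mice. The groups overlapped (exact two-sided permutation p = 0.4), with means of 74.6 ± 10.4 and 84.7 ± 9.48 (SD, n = 3). The interval of the log2 fold change was -0.13 to 0.50 (adjusted p = 0.422, limma).

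*Cul3* (ENSMUSG00000004364, chr1:80264923-80340480, - strand), the ligase scaffold, was at 154, 159 and 121 normalized CPM for Wt mice and 192, 158 and 176 for mutant mice. Mutant mouse 2 lay below Wt mouse 2, so that the groups overlapped (exact two-sided permutation p = 0.2). The log2 fold change was 0.28 with an interval of -0.04 to 0.60 (adjusted p = 0.264, limma), and its lowest value over all 19 alternative fits was 0.15. The interval is that of a single gene, for RNA of whole iWAT and not of preadipocytes alone. Both genes share the higher sign of *Cdkn1a*, and they were the only other members with a log2 fold change above 0.

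Levels between genes were compared per kilobase of annotated exon. *Cul3* was the most abundant of the 10, at 29.7 ± 4.23 (SD, n = 3) normalized CPM per kilobase in Wt and 35.9 ± 3.53 in mutant mice, followed by *Ccnd2* at 24.2 ± 0.611 and 22.5 ± 0.734. *Cdk6* was the least abundant, at 1.38 ± 0.249 and 1.02 ± 0.348, below *Cdk2* at 6.15 ± 0.513 and 5.01 ± 0.408. Over the 6 mice, the ranges of neighbours did not overlap between *Cul3* and *Ccnd2*, between *Ccnd2* and *Cdk4*, between *Ccnd3* and *Cdk2* and between *Cdk2* and *Cdk6*. Between *Cdk4* and *Ccnd3*, with *Cdkn1b*, *Rb1*, *Cdkn1a* and *Ccnd1* in between, every neighbouring pair overlapped. These ranges pool both genotypes. Within Wt mice *Cdkn1a* (5.81 to 6.08) lay below all values of *Rb1* and *Ccnd1*. Within mutant mice (14.7 to 19.0) it lay above all values of *Ccnd1* and overlapped *Rb1*. *Cdkn1a* moved from place 9 in Wt mice (5.95 ± 0.132 per kilobase) to place 3 in mutant mice (16.6 ± 2.23). With the longest transcript as the length, *Ccnd2* (34.7 over all mice) came before *Cul3* (34.0) and *Ccnd3* stood in place 4.

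**Figure D3:**
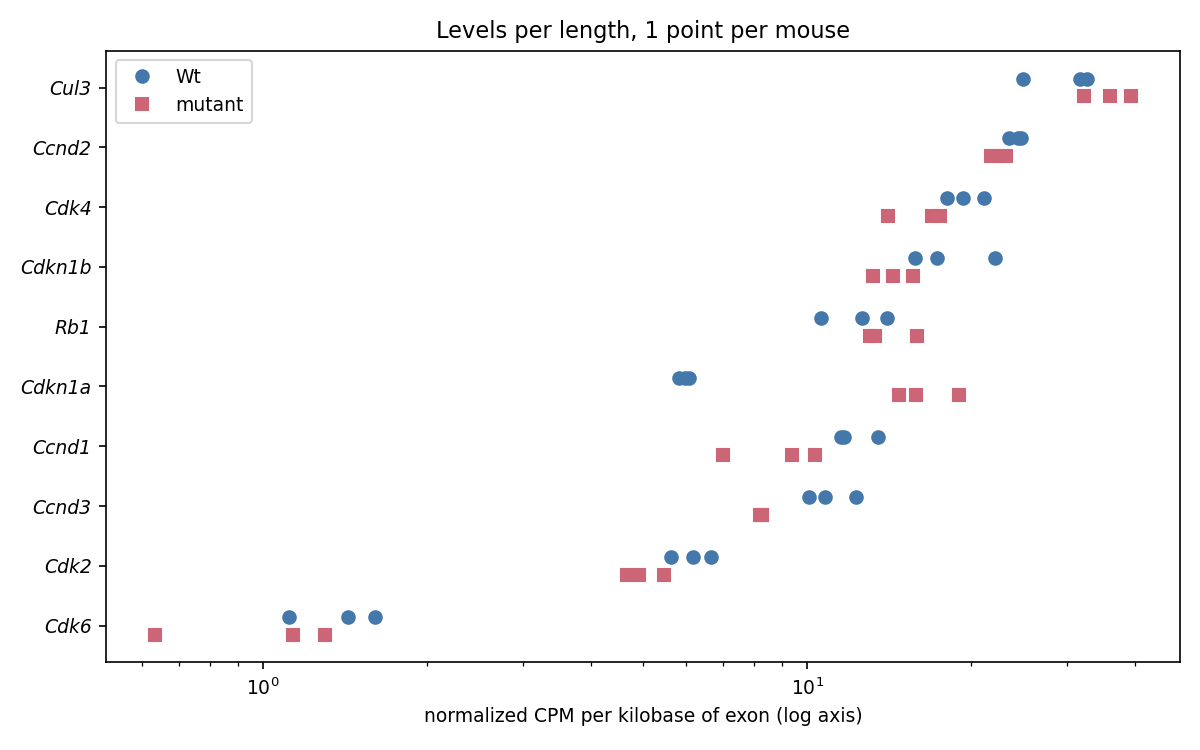
Normalized CPM per kilobase of exon (horizontal log axis) of the 10 genes, 1 point per mouse, Wt as blue circles and mutant as red squares, ordered by the mean of the 6 mice. *Cul3* is at the top at 24.9 to 39.4, *Cdk6* at the bottom at 0.633 to 1.61, and *Cdkn1a* is the row with a wide gap between the genotypes.

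Shares within each family show the same levels another way. *Ccnd2* made up 51.0% ± 2.08 (SD, n = 3) of the D-type cyclin mRNA per kilobase in Wt mice and 56.8% ± 3.24 in mutant mice, *Ccnd1* 25.7% ± 1.05 and 22.4% ± 3.84, and *Ccnd3* 23.2% ± 1.11 and 20.8% ± 0.595. With the longest transcript as the length, *Ccnd3* (32.8% and 29.6%) came before *Ccnd1* (20.1% and 17.7%). Among the kinases, *Cdk4* held 72.2% ± 0.566 in Wt and 72.9% ± 0.766 in mutant mice, *Cdk2* 22.7% and 22.6%, and *Cdk6* 5.09% and 4.52%. The kinase makeup therefore differed by less than 1 percentage point in its means, although single kinases were at lower values. *Cdkn1a* made up 24.7% ± 2.99 of the inhibitor pair in Wt mice and 53.3% ± 5.34 in mutant mice, or 35.8% and 66.0% with the longest transcript as the length.

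**Figure D4:**
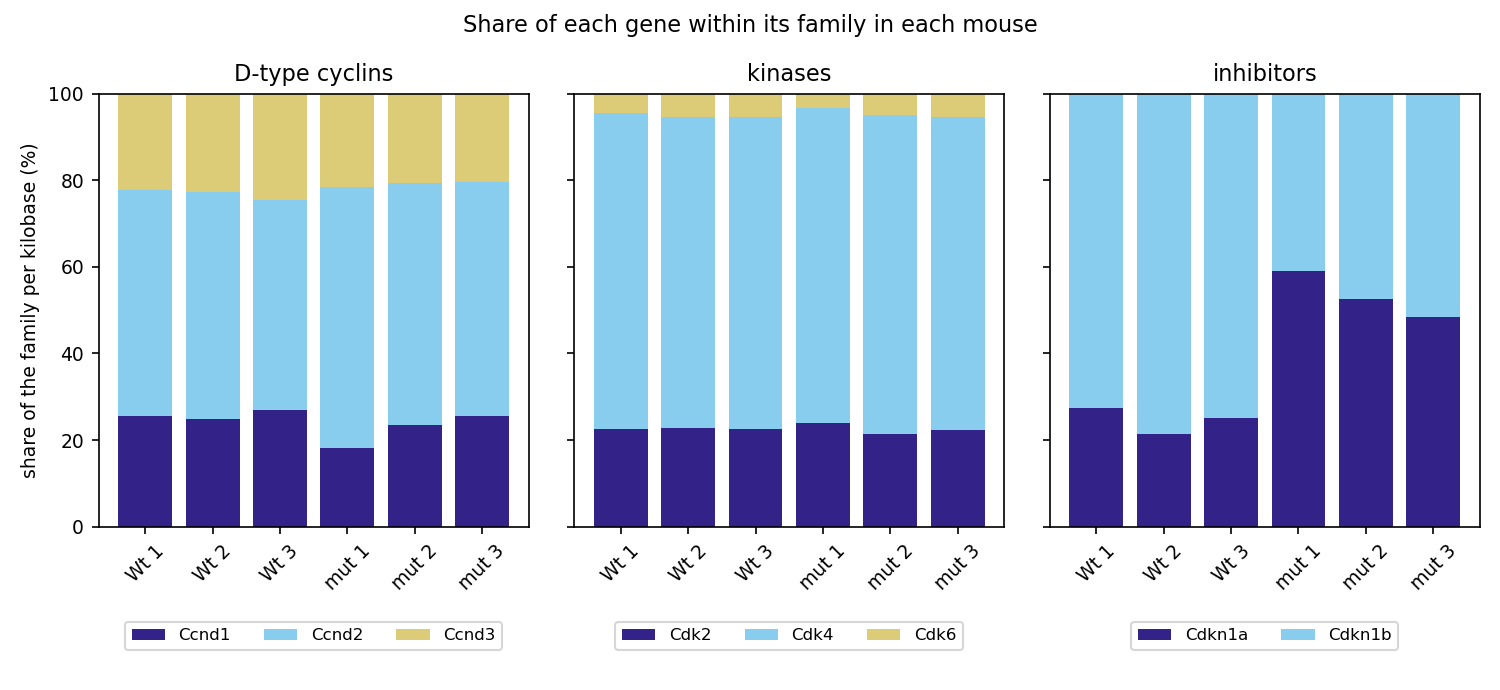
Share (vertical axis, %, from 0 to 100) of each gene in the summed normalized CPM per kilobase of its family, 1 bar per mouse, for the D-type cyclins, the kinases and the 2 inhibitors. *Cdkn1a* takes 21.5% to 27.4% of its pair for Wt mice and 48.5% to 59.1% for mutant mice, while *Cdk4* holds 71.8% to 73.7% of the kinases in all 6 mice.

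Several of these genes share exonic bases with a gene on the other strand, and the use of strand in counting is not given in the sources used here, so reads of such pairs cannot be told apart. The largest shared stretch was 1100 bases between *Ccnd1* and the gene listed as LTO1, at 0.489 times the level of *Ccnd1*. *Rb1* shares 488 bases with *Rcbtb2* (1.18 times its level) and 408 with *Lpar6* (0.682 times), and *Cdk4* shares 641 with *Tspan31* (1.03 times). *Tspan31*, a tetraspanin gene, did not follow *Cdk4*, at 65.4, 56.2 and 55.1 normalized CPM in Wt and 68.3, 58.0 and 55.2 in mutant mice. *Bysl*, which shares 361 bases with *Ccnd3*, was at 20.4 ± 0.636 (SD, n = 3) in Wt and 21.9 ± 0.188 in mutant mice, opposite in sign to *Ccnd3*.

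Low transcripts on the other strand gave a further contrast. AC167363.2, which shares 273 bases with *Cdkn1a*, was at 0.0419, 0.0486 and 0.126 normalized CPM in the Wt mice, at or under the floor of 3 reads, and at 1.21, 1.71 and 1.31 for mutant mice, higher in all of them (adjusted p = 0.003, limma). Its mean was 0.0185 times that of *Cdkn1a*. Gm43126, which shares 372 bases with *Ccnd2*, was also higher, at 3.41, 4.49 and 2.90 in mutant mice against 0.545, 0.195 and 0.463 in Wt mice (adjusted p = 0.00394, limma), while *Ccnd2* itself was not called. *Cdk2* shares 34 bases with *Pmel* (log2 fold change 0.79, adjusted p = 0.0981, limma), *Ccnd2* shares 368 with 9330179D12Rik, and *Cdk6* shares 368 with Gm17590, which had 0 reads in all mice. *Cdkn1b* and *Cul3* share none.

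The partners of these genes were described by 5 lists. Of 26 tested G1 partners, among them E-type cyclins, INK4 inhibitors, *Rbl1*, *Rbl2* and the E2F factors, 0 were called by limma, 8 had an unadjusted p under 0.05 (24.2% of all genes tested) and the median log2 fold change was 0.03, beside -0.05 over all genes. DESeq2's Wald test called 3 of them. The smallest unadjusted p-values were those of *Ambra1*, which promotes degradation of D-type cyclins, at 59.7, 62.3 and 65.9 normalized CPM in Wt and 45.8, 51.8 and 53.4 in mutant mice (adjusted p = 0.0897, limma), and of *E2f4*, a repressive E2F factor, at 45.1, 49.7 and 58.2 against 30.3, 38.5 and 40.1 (adjusted p = 0.0988, limma). The INK4 gene *Cdkn2a* had too few reads to be tested, at 0.0524 to 0.883 normalized CPM. Groups did not overlap for 4 G1 partners in the higher and 4 in the lower direction (14.9% and 15.7% of all genes tested). Among them *Cdkn2b* (0.38, adjusted p = 0.123, limma) and *Cdkn2c* (0.61, adjusted p = 0.115, limma) were higher. The INK4 gene *Cdkn2d* was lower (-0.47, adjusted p = 0.163, limma).

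Of 25 genes of cullin ligases other than *Cul3*, with their RING proteins and adaptors, 0 were called, by limma or by DESeq2's Wald test, 6 had an unadjusted p under 0.05 (24.2% of all genes) and the median log2 fold change was 0.09. *Cul9* was at 52.9 ± 4.92 (SD, n = 3) in Wt and 39.4 ± 5.84 in mutant mice (adjusted p = 0.102, limma), and *Keap1*, a substrate adaptor of the CUL3 ligase, at 74.5 ± 2.29 and 63.2 ± 4.04 (adjusted p = 0.129, limma). With the GC correction the log2 fold change of *Cul9* went from -0.43 to -0.21 and that of *Keap1* from -0.24 to -0.02 (adjusted p = 0.365 and 0.894, limma). *Cul9* was called lower without mutant mouse 1 (-0.54, adjusted p = 0.0393, limma).

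Of 15 tested CREB and AP-1 factors, 3 rose and 1 fell past the FDR, beside 5.50% of all genes tested called higher and 2.61% called lower. Without adjustment, 9 of the 15 had a p under 0.05 (limma), as did 24.2% of all genes. The median log2 fold change was -0.19. The 3 that rose were *Fosb* at 1.89, 2.33 and 2.86 normalized CPM in Wt and 6.66, 6.24 and 5.10 in mutant mice (adjusted p = 0.0137, limma), *Fos* at 5.05 ± 0.603 and 9.82 ± 1.96 (SD, n = 3, adjusted p = 0.0331, limma) and *Fosl2* at 47.4 ± 2.08 and 72.7 ± 11.7 (adjusted p = 0.0363, limma), all members of the FOS family of AP-1. *Jund*, a JUN partner of theirs, fell from 99.2 ± 17.6 to 59.6 ± 5.64 (log2 fold change -0.72, adjusted p = 0.0379, limma). The *Jund* call was lost with the GC correction, at -0.46 (adjusted p = 0.175, limma), and with library size only (adjusted p = 0.0907, limma). Calls in this list also changed with single mice left out, and *Fos* was not called in any such fit (adjusted p of 0.0559 to 0.113, limma). Without Wt mouse 2 or mutant mouse 2 there were 0 calls in this list, without Wt mouse 3 there was 1, and without Wt mouse 1, mutant mouse 1 or mutant mouse 3 there were 2. *Creb1* was at 48.6, 67.9 and 59.8 in Wt and 43.0, 51.0 and 56.9 in mutant mice, with overlapping groups. In this list 11 log2 fold changes were below 0 and 4 above. Groups did not overlap for 3 genes in the lower and 3 in the higher direction (15.7% and 14.9% of all genes tested). *Crtc1* (-0.30, adjusted p = 0.0718, limma) and *Crtc2* (-0.49, adjusted p = 0.0845, limma) were among the 3 lower. DESeq2's Wald test called 3 higher and 3 lower, as did limma at an FDR of 0.1.

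Of 18 genes of S phase and mitosis, 0 were called by limma or by DESeq2's Wald test, and 0 had an unadjusted p under 0.05. All 18 had a log2 fold change below 0, with a median of -0.50, also under the other scalings and the GC correction (medians of -0.50 to -0.48), and the summed value was 196, 256 and 323 normalized CPM in Wt 1, 2 and 3 and 114, 206 and 242 in mutant 1, 2 and 3. Mouse 1 was again the lowest in both genotypes. Without mutant mouse 1 the median was -0.14 and 16 of the 18 were below 0. *Ccnb2*, a mitotic cyclin, was at 2.09, 3.55 and 4.08 in Wt and 0.367, 2.24 and 1.59 in mutant mice (adjusted p = 0.211, limma), and *Aurkb*, a mitotic kinase, at 3.49 ± 0.0787 and 1.92 ± 1.05 (SD, n = 3, adjusted p = 0.212, limma). Without mutant mouse 1 their log2 fold changes went from -1.09 to -0.60 and from -0.83 to -0.43. The part of lymphocyte transcripts in these values was not tested.

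Of 11 p53 pathway genes other than *Cdkn1a*, 0 were called by limma, 3 had an unadjusted p under 0.05 (24.2% of all genes), and DESeq2's Wald test called 1 higher and 1 lower. The median log2 fold change was -0.17. *Ccng1* was at 261, 257 and 176 normalized CPM in Wt and 459, 298 and 405 in mutant mice (log2 fold change 0.74, adjusted p = 0.0977, limma), while *Bax*, which promotes apoptosis, was at 15.4, 19.5 and 21.9 against 8.91, 11.7 and 13.1 (-0.73, adjusted p = 0.071, limma, and -0.47 with the GC correction). These 2 had opposite signs, and *Trp53* itself was at 44.2, 62.7 and 69.9 in Wt and 27.1, 45.2 and 50.2 in mutant mice, with overlapping groups.

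**Figure D5:**
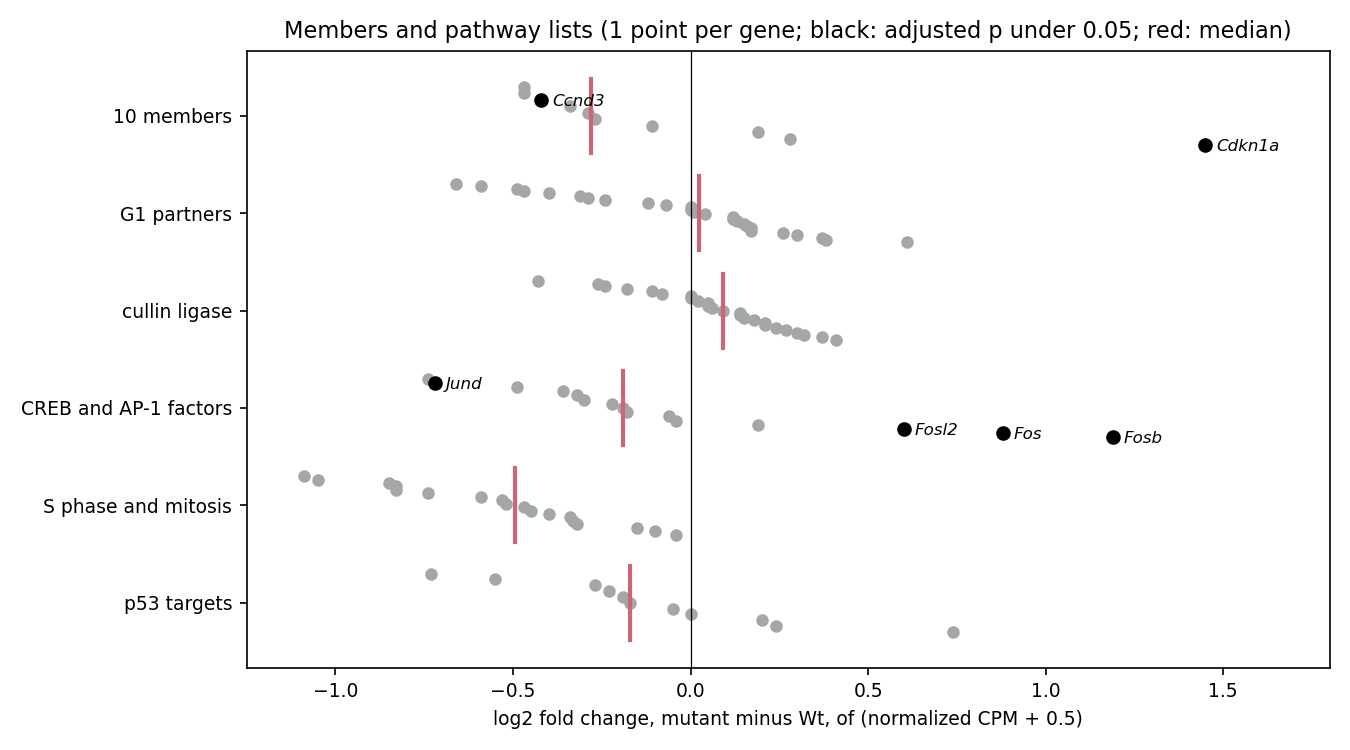
Log2 fold change (horizontal axis, mutant minus Wt, of normalized CPM + 0.5) of the 10 G1 genes and of the genes of 5 lists, 1 point per gene, black for an adjusted p under 0.05 and a red line at the median of each row. *Cdkn1a* at 1.45 lies to the right of every listed gene, all 18 S phase and mitosis points are left of 0 with none in black, and the CREB and AP-1 row holds the 4 black points of *Fosb*, *Fos*, *Fosl2* and *Jund*.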

How the data were processed

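RNA-seq of iWAT from 3 Wt and 3 mutant male mice was analysed, with 1 library per mouse and genotype taken from the labels. The submitters' processing notes name Bowtie2 2.1.0, RSEM 1.2.15, edgeR and mm10, without their roles. Aligner settings, annotation and use of strand are not given in the sources used here. Each value deposited by the authors is a normalized signal, the gene's CPM scaled by a factor of that mouse. In each mouse 100% of the values were whole multiples of 1 read (tolerance 0.05 reads), which gave the reads. Genes were matched by identifier, since 27 symbols had become dates, and 55480 of 55573 were found in GENCODE M21 (GRCm38), which gave coordinates and lengths.

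The genotype contrast was fitted in limma 3.58.1 under R 4.3.3 (mean-variance trend, log2(value + 0.5), Benjamini-Hochberg, FDR 0.05) over the 16868 genes kept by filterByExpr of edgeR 4.0.16, in a procedure tested on simulated data. No 2 libraries of the same genotype agreed within sampling noise, and pairs across genotypes were not compared. The mice are separate animals. Lists are described by counts and medians without a set test. The members and lists were chosen with earlier results of these data known. Named genes are the members, *Thra*, overlapping genes, and in each list up to 4 genes past the FDR or else the 2 with the smallest p. Other genes were named after their values were seen, namely *Creb1*, *Crtc1*, *Crtc2*, *Trp53*, *Cdkn2a*, *Cdkn2b*, *Cdkn2c*, *Cdkn2d*, *Myh1*, *Mylpf* and the mesothelial markers. The 19 alternatives were other scalings, edgeR's quasi-likelihood test, the Wald test of DESeq2 1.42.0 and limma-voom on the reads, filters, pseudocounts of 0.1 and 1, an FDR of 0.1, a correction for GC content in 20 bins, a replicate block, and each mouse left out. Summaries and plots were made with Python 3.11.15, pandas 2.3.3 and Matplotlib 3.10.9.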

Additional observations from a re-analysis of the deposited data

How the results depend on the processing

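No gene of the 10 changed sign in any of the 19 alternatives, and *Cdkn1a* was called in all of them. *Ccnd3* was called in 8. Of the 10 genes, 1 was called with library size only, limma-voom, no filter, at least 10 reads in every mouse, or the GC correction, and 1 with any mouse left out. Over all genes, 2170 were called by DESeq2's Wald test, 598 with at least 10 reads in every mouse and 2263 at an FDR of 0.1. With a mouse left out there were 554 to 1005, namely 840, 554 and 581 without Wt mouse 1, 2 or 3 and 1005, 587 and 776 without mutant mouse 1, 2 or 3. Calls among the G1 partners were 1 with library size only, 3 with the Wald test and 2 at an FDR of 0.1. In the cullin ligase list there was 1 with library size only and 0 to 1 with a mouse left out. In the CREB and AP-1 list there were 2 with at least 10 reads in every mouse and 0 to 2 with a mouse left out. In the p53 list there were 2 with the Wald test and 2 at an FDR of 0.1. The causes of these changes were not tested, except that fewer mice and fewer genes entered the fits that left some out. Scaling moved the median of all genes by less than 0.1 on the log2 scale.

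Mice of both genotypes are numbered 1 to 3, and the labels do not say whether the number stands for anything shared. Across genes, how far a mouse lay from its genotype mean correlated between mice of 1 number at 0.69, 0.06 and 0.56, and mice 1 and 3, not mouse 2, correlated best with their own number. With the number as a replicate block, 4063 genes were called, and 3253 with block and GC correction. Among the 10 genes each of these fits gave 5 calls, 1 higher and 4 lower. *Cdkn1a*, *Ccnd3*, *Ccnd1* and *Cdk2* were called in both, *Cdk4* only with the block alone (adjusted p = 0.0321, limma, and 0.0617 with the GC correction) and *Cdkn1b* only with both (0.0732 and 0.0444). *Thra* was called higher with both (0.45, adjusted p = 0.00937, limma). The list calls with the block, and with block and GC correction, were 6 and 6 for the G1 partners, 6 and 3 for the cullin ligases, 9 and 9 for the CREB and AP-1 factors, 6 and 4 for S phase and mitosis, and 4 and 4 for the p53 list.

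The interval of *Cdk6* on the log2 scale, -1.14 to 0.21, is the widest of the 10 genes.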
